A study of Homo sapiens with 6 samples.

Results

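The transcripts of 10 genes that drive the cell cycle, 6 cyclins and 4 cyclin-dependent kinases (CDKs), were followed in CAL51 cells with and without a knockout of TREX1. CAL51 is a cell line from a human triple-negative breast tumour, long established in culture, and TREX1 encodes an exonuclease that degrades DNA in the cytosol. The genes were taken by symbol from a table of 14788 genes and are given in the order of the cycle: the D cyclins CCND1 and CCND3 with CDK4 and CDK6, the E cyclins CCNE1 and CCNE2 with CDK2, the A cyclin CCNA2, and the B cyclin CCNB1 with CDK1. All 10 were in the table, and all 10 passed the filter on low values that left 13765 genes to test. Polyadenylated RNA was sequenced in 6 libraries, 2 in each of 3 groups. KO-1 and KO-2 each carried 1 of 2 guide RNAs against TREX1, introduced with a CRISPR v2 lentivirus, and the control was CAL51 without further description. A read-me deposited with the tables speaks of KO clones, so a knockout group may stand for 1 clone or a few. The labels do not state that the replicates came from separate cultures. The p-values therefore describe the spread of these libraries alone, and that spread may be technical. TREX1 itself was not analysed here, and the knockout labels were not checked against its level.

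Cyclins are proteins that appear and disappear as the cell cycle turns, and each switches on a partner kinase. D cyclins with CDK4 or CDK6 begin the phosphorylation of the retinoblastoma protein RB in G1, which frees E2F transcription factors, and E cyclins with CDK2 carry the cell into S phase. Cyclin A acts with CDK2 in S phase and with CDK1 later, and cyclin B with CDK1 drives mitosis. Transcripts of the D cyclins follow growth signals, those of the E cyclins follow E2F, and those of CCNA2, CCNB1 and CDK1 peak late in the cycle. Amplified CCND1 and CCNE1 are known from breast tumours, and CDK4 and CDK6 inhibitors are used against hormone receptor positive breast cancer.

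Recovered read totals were 16802681 and 18440036 in KO-1, 13222933 and 20154836 in KO-2, and 22941234 and 25785055 in control. KO-2 replicate 1 stood apart: it was the shallowest library, 61 of its genes had 0 reads where the other libraries had 5 to 16 such genes, and on the second principal component, with 25.1% of the variance, it lay at -33.4 while the others lay between 5.18 and 8.94. KO-2 replicate 2 stood apart on the third, with 11.2% of the variance, at -21.6 while the others lay between 0.744 and 7.87. The epithelial markers EPCAM, KRT8, KRT18, KRT19 and CDH1 were all present, and their summed level was 2205 to 2214 CPM (read counts scaled to the size of the library) in KO-1, 2170 to 2197 in KO-2 and 1764 to 1802 in control. Of 9 markers of leukocytes, endothelium and red cells, 4 were in the table, and the other 5 were not analysed here. PTPRC lay at a log2 CPM of 4.25 and 4.35 in KO-1, 4.05 and 3.97 in KO-2, and 4.06 and 3.95 in control. CDH5 lay at 3.73 and 3.54 in KO-1, 3.48 and 3.46 in KO-2, and 4.05 and 3.85 in control. The summed level of the 4 was 38.7 to 38.8 CPM in KO-1, 33.8 to 36.0 in KO-2 and 36.8 to 39.8 in control. Of the mesenchymal markers VIM, FN1 and CDH2, VIM lay at a log2 CPM of 6.51 and 6.63 in KO-1, 6.74 and 6.56 in KO-2, and 6.29 and 6.20 in control, while the summed level of the 3 overlapped between the knockouts and control. ERBB2 lay at 7.35 and 7.36 in KO-1, 7.47 and 7.55 in KO-2, and 7.64 and 7.60 in control. The part of these markers in the results below was not tested.

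With both guides averaged, 4 of the 10 genes differed from control by the test described next. CDK6 and CCND1 rose, CCND3 and CCNE2 fell, and CDK4, CCNE1, CDK2, CCNA2, CCNB1 and CDK1 did not pass the test. Values are the deposited log2 CPM, and differences are tested with limma, which borrows spread across genes. A gene is said to have risen or fallen where its p, adjusted by Benjamini-Hochberg across the 13765 genes, is below 0.05. The 4 of 10 called genes compare with 29.6% of all genes tested, 14.6% higher and 14.9% lower. KO-1 alone gave 5 of 10, the same 4 and CCNA2 falling, where 29.7% of all genes were called, 14.6% higher and 15.1% lower. KO-2 alone gave 2 of 10, CCND1 and CDK6 rising, where 16.9% of all genes were called, 8.73% higher and 8.19% lower. Nothing particular to the 10 genes is read from these shares. Their median log2 fold change with both guides was -0.01, as it was over all genes. In 4 of the 10, no knockout library overlapped the control range and all 4 were on the same side of it, against 46.3% of all genes. The KO-1 libraries lay on one side of control in 6 of 10, against 71.7% of all genes, and the KO-2 libraries in 8 of 10, against 59.0%. In bulk RNA, fewer cells in a phase of the cycle and less RNA per cell cannot be told apart.

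**Figure D1:**
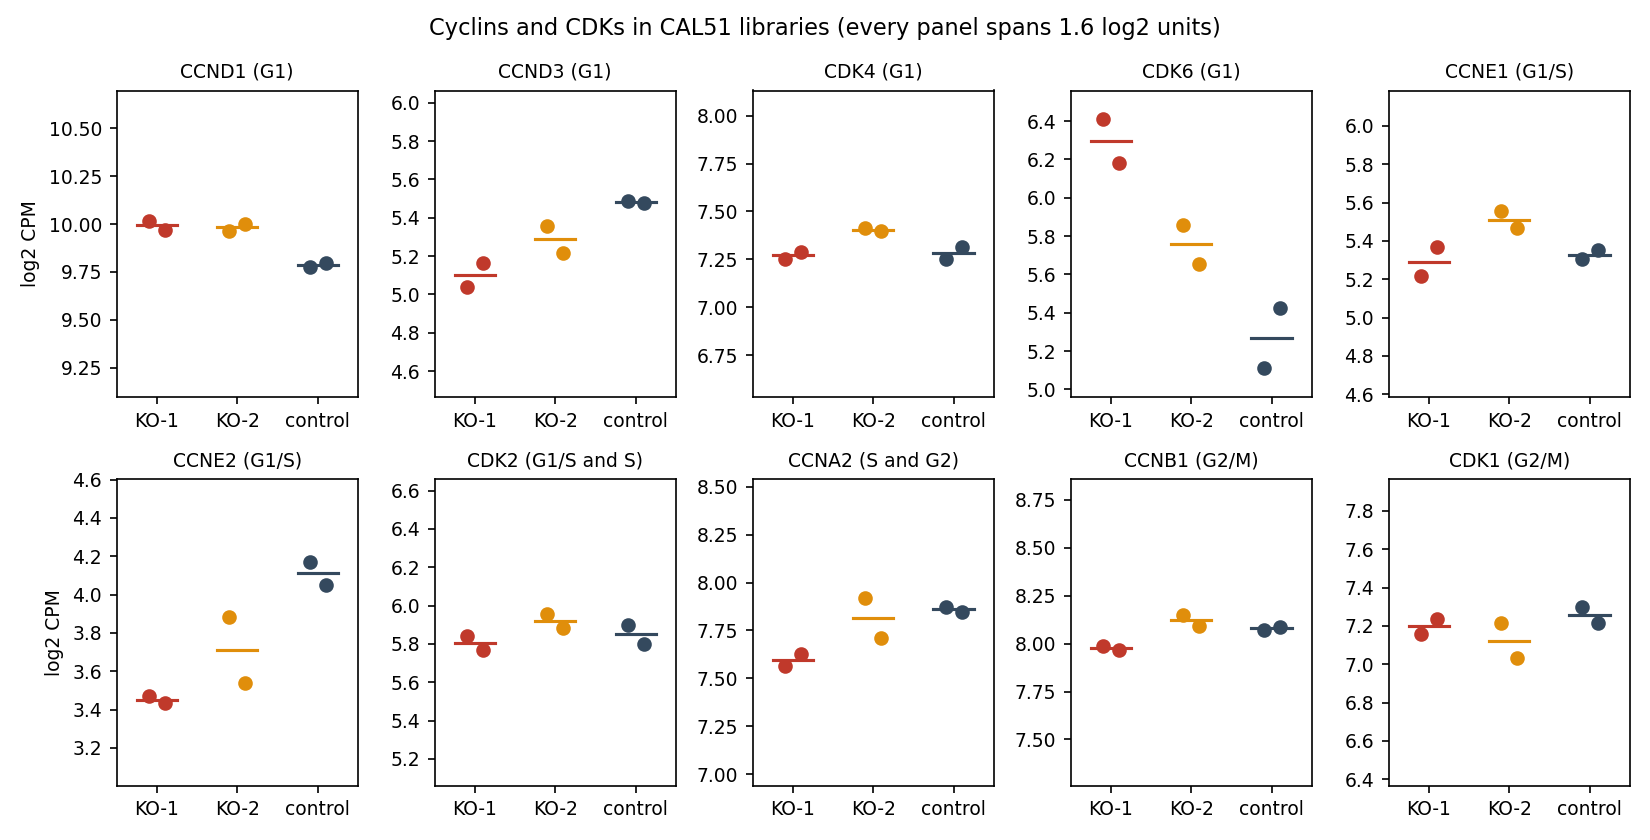
Log2 CPM of the 10 genes in each of the 6 libraries, ordered by cell cycle phase, with KO-1, KO-2 and control from left to right; points are libraries and bars are means of 2. CDK6 lies at 6.41 and 6.18 in KO-1, 5.86 and 5.66 in KO-2, and 5.11 and 5.43 in control, while for CDK2 both guides overlap control.

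CDK6, a kinase partner of the D cyclins, changed most of the 10. Its log2 CPM was 6.41 and 6.18 in KO-1, 5.86 and 5.66 in KO-2, and 5.11 and 5.43 in control, from 756 to 1407 reads per library. Every knockout library lay above both control libraries, and both KO-1 libraries lay above both KO-2 libraries. The log2 fold change over control was 0.76 ± 0.10 with both guides (SE, limma adjusted p = 0.00048), a 1.69-fold difference. It was 1.03 ± 0.12 in KO-1 (adjusted p = 0.00018) and 0.49 ± 0.12 in KO-2 (adjusted p = 0.019). The KO-2 call was lost without control replicate 1, the library with the lowest CDK6, where the log2 fold change was 0.33 and the adjusted p 0.21. It was also lost when limma was run with no mean-variance trend (adjusted p = 0.13). The rise with both guides was called under all 13 other settings run, at 0.60 to 0.92, and so was the KO-1 rise, at 0.87 to 1.18.

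Since CDK6 is the gene with the largest difference, the bases before its start are shown. RefSeq (GRCh38.p14) places the first of its 2 starts so that the 250 bases before it are chr7:92836574-92836823 on the minus strand. GENCODE release 29 (GRCh38), the source of all gene positions given here, draws the gene at 7:92604921-92836594, so the window runs into it.
CDK6: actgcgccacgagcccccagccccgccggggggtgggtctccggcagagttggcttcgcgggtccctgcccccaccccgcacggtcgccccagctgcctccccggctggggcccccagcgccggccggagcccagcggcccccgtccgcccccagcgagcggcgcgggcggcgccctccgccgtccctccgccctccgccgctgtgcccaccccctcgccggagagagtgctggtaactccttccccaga
The window is 80.0% G or C. It is printed without capitals because it holds none of the motifs searched here, which are spelt out beside the late genes below.

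CDK4, the other kinase of the D cyclins, had a log2 CPM of 7.25 and 7.29 in KO-1, 7.41 and 7.40 in KO-2, and 7.25 and 7.31 in control. The KO-1 libraries overlapped control, and both KO-2 libraries lay above it. The log2 fold change was 0.06 with both guides (adjusted p = 0.43, 95% interval -0.05 to 0.17), -0.01 in KO-1 (adjusted p = 0.91) and 0.12 in KO-2 (adjusted p = 0.17). The interval with both guides leaves out a difference as large as that of CDK6, whose interval was 0.53 to 0.98. CDK4 lies at 12:57747727-57756013 on the minus strand, and 43.2% of its exon bases overlap exons of TSPAN31 on the opposite strand. The sources used here do not give the strand setting of the counting, so reads of overlapping genes on opposite strands cannot be told apart. TSPAN31 itself had a log2 fold change of 0.19 with both guides (adjusted p = 0.29).

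CCND1 encodes cyclin D1 and was the most abundant of the 10, with 13018 to 23199 reads per library. Its log2 CPM was 10.02 and 9.97 in KO-1, 9.96 and 10.00 in KO-2, and 9.78 and 9.79 in control. All 4 knockout libraries lay above both control libraries, and the guides overlapped. The gene rose by a log2 fold change of 0.20 ± 0.04 with both guides (adjusted p = 0.0028), a rise of 15.1%. It rose by 0.21 in KO-1 (adjusted p = 0.0050) and by 0.20 in KO-2 (adjusted p = 0.013). Leaving out control replicate 1 (adjusted p = 0.068) or the mean-variance trend (adjusted p = 0.069) ended the call with both guides. The KO-1 call was lost without KO-1 replicate 1 (0.083) or control replicate 1 (0.070), and the KO-2 call without control replicate 1 (0.15) or control replicate 2 (0.11). With no mean-variance trend neither guide's call held (0.086 in KO-1 and 0.14 in KO-2). CCND1 lies at 11:69641087-69654474 on the plus strand, and 10.3% of its exon bases overlap exons of LTO1 on the opposite strand. LTO1 had a log2 fold change of -0.24 with both guides (adjusted p = 0.20).

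CCND3 encodes cyclin D3 and went the other way from CCND1. Its log2 CPM was 5.04 and 5.16 in KO-1, 5.36 and 5.21 in KO-2, and 5.49 and 5.48 in control, from 534 to 1160 reads per library. Every knockout library lay below both control libraries, and KO-1 lay below KO-2 without overlap. The gene fell by 0.29 ± 0.08 on the log2 scale with both guides (adjusted p = 0.020) and by 0.38 ± 0.09 in KO-1 (adjusted p = 0.010). In KO-2 the log2 fold change was -0.20 (adjusted p = 0.17, 95% interval -0.40 to 0.01). The call with both guides was lost without KO-1 replicate 1 (0.078), control replicate 1 (0.17) or control replicate 2 (0.15), and with no mean-variance trend (0.062). The KO-1 call was lost without the same libraries, at adjusted p of 0.11, 0.092 and 0.079. CCND3 lies at 6:41934933-42050357 on the minus strand. CCND2, the remaining D cyclin, was near the lower end of the table, with a log2 CPM of 0.69 and -0.63 in KO-1, -0.83 and 0.37 in KO-2, and -1.48 and -1.04 in control, and its log2 fold change of 1.16 did not pass (adjusted p = 0.12).

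**Figure D2:**
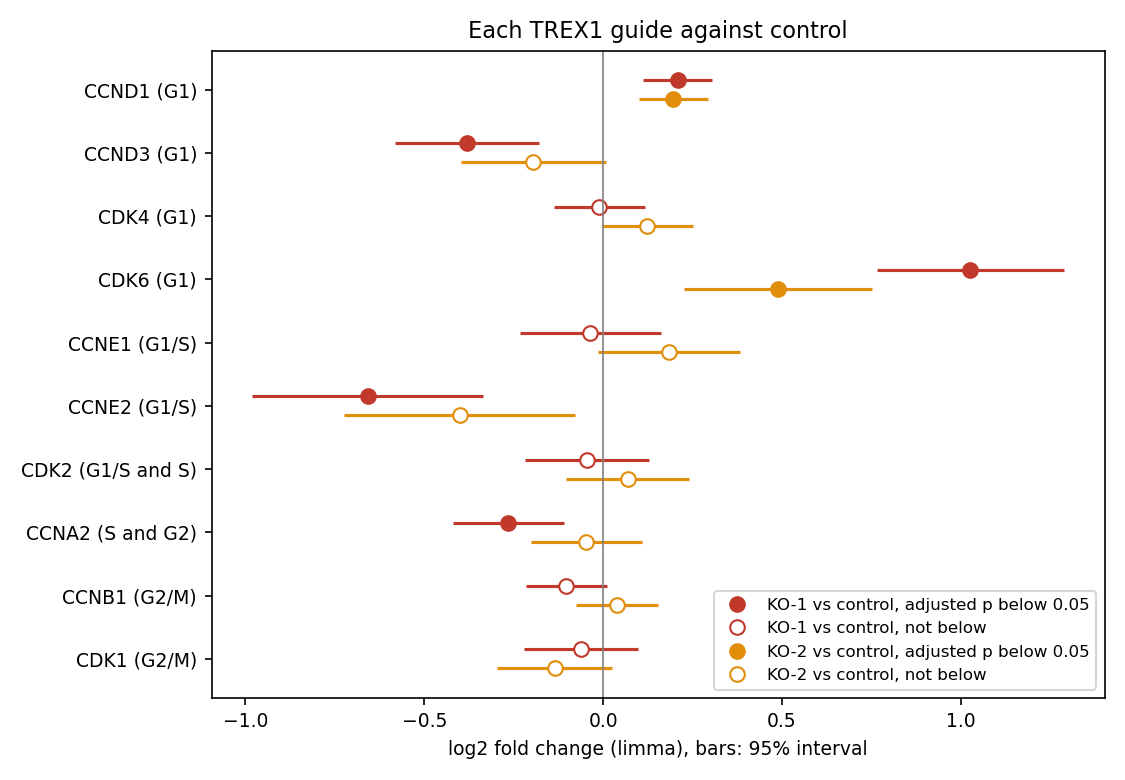
Log2 fold change over control of the 10 genes in KO-1 and in KO-2, with 95% intervals from limma, in the order of the cycle. CDK6 stands at 1.03 in KO-1 and 0.49 in KO-2, and CCNE2 at -0.66 in KO-1 and -0.40 in KO-2; both comparisons share the same 2 control libraries.

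A share of a pair of related genes within a library does not depend on the scaling between libraries, so 3 such shares were taken on CPM per kb of exon. They describe the values already given and carry no test. Reads from genes on the opposite strand, a limit given for CDK4 and CCND1 above and CCNE2 below, were not removed. CDK6 made up 12.6% and 10.7% of the summed CDK6 and CDK4 level in KO-1, 8.08% and 7.16% in KO-2, and 5.53% and 6.52% in control. The 3 groups did not overlap, and the summed level itself averaged 55.1 CPM per kb in KO-1, 57.9 in KO-2 and 52.3 in control. CCND3 made up 2.57% and 2.88% of the summed CCND3 and CCND1 level in KO-1, 3.30% and 2.92% in KO-2, and 4.08% and 4.00% in control. CCND1 thus held nearly all of this sum in every library. CCNE2 made up 14.7% and 13.1% of the summed CCNE2 and CCNE1 level in KO-1, 15.3% and 13.1% in KO-2, and 20.9% and 19.0% in control. For both cyclin pairs the knockout libraries lay below the control libraries, and for CCNE2 the guides overlapped.

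**Figure D3:**
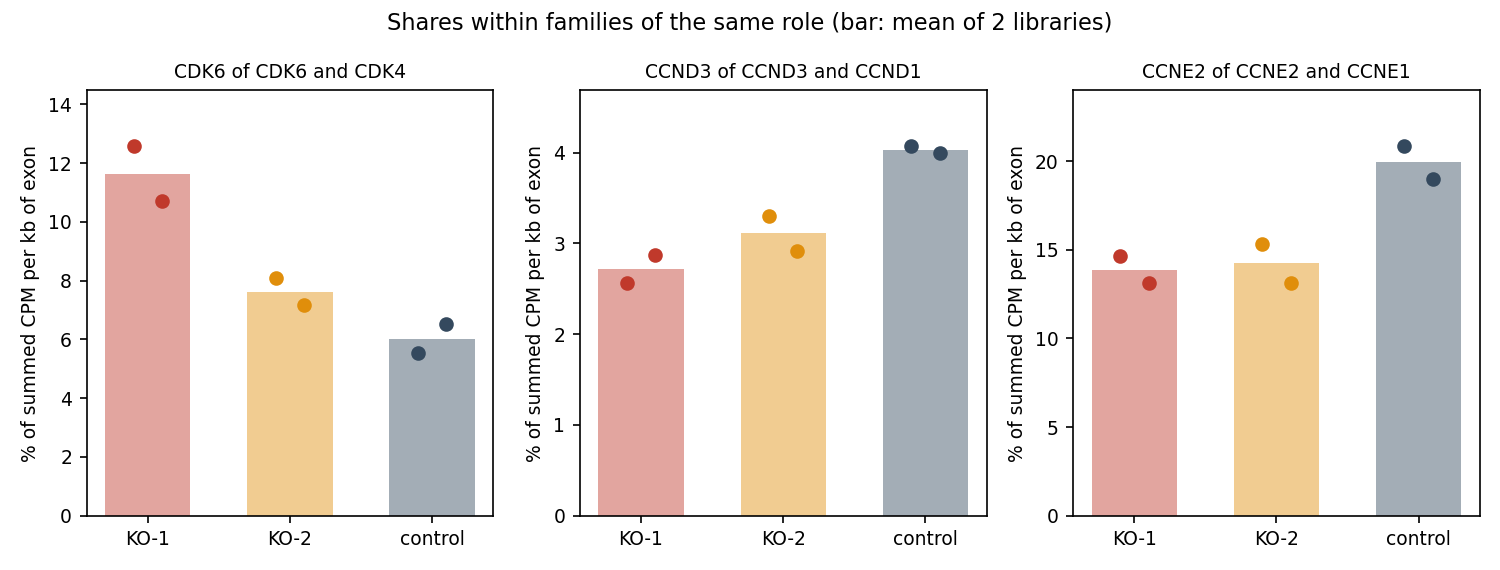
Share of CDK6 in CDK6 plus CDK4, of CCND3 in CCND3 plus CCND1, and of CCNE2 in CCNE2 plus CCNE1, in percent of summed CPM per kb; points are the 6 libraries and bars means of 2, with KO-1, KO-2 and control from left to right. The CDK6 share averaged 11.6% in KO-1, 7.62% in KO-2 and 6.02% in control, and the CCNE2 share 13.9% in KO-1, 14.2% in KO-2 and 19.9% in control.

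Of the genes of the passage into S phase, CCNE2 fell and its sister CCNE1 did not pass. CCNE2 encodes cyclin E2, an activator of CDK2. Its log2 CPM was 3.47 and 3.44 in KO-1, 3.88 and 3.54 in KO-2, and 4.17 and 4.05 in control, from 182 to 430 reads per library, the fewest of the 10 genes. All 4 knockout libraries lay below both control libraries. The gene fell by 0.53 ± 0.13 on the log2 scale with both guides (adjusted p = 0.010) and by 0.66 ± 0.15 in KO-1 (adjusted p = 0.0066). In KO-2 the log2 fold change was -0.40 ± 0.15 (adjusted p = 0.086, 95% interval -0.72 to -0.08), which voom weights on the recovered reads brought below the threshold (adjusted p = 0.046). The call with both guides was lost without control replicate 1 (0.14) or control replicate 2 (0.068), and the KO-1 call without KO-1 replicate 1 (0.051), KO-1 replicate 2 (0.060) or control replicate 1 (0.084).

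CCNE2 lies at 8:94879770-94896678 on the minus strand, and 37.0% of its exon bases, 1629 bases, overlap exons of INTS8 on the opposite strand. INTS8, a subunit of the Integrator complex, had a log2 CPM of 5.97 and 5.93 in KO-1, 6.23 and 5.86 in KO-2, and 6.36 and 6.36 in control. It fell too, by 0.36 on the log2 scale with both guides (adjusted p = 0.012). INTS8 was the more abundant of this pair of genes in every library. How far its reads were counted for CCNE2 was not tested.

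CCNE1 encodes cyclin E1. Its log2 CPM was 5.21 and 5.37 in KO-1, 5.56 and 5.47 in KO-2, and 5.30 and 5.35 in control. The KO-1 libraries lay on both sides of control, and both KO-2 libraries lay above all others. The log2 fold change was 0.07 with both guides (adjusted p = 0.51, 95% interval -0.10 to 0.25), -0.04 in KO-1 (adjusted p = 0.80) and 0.18 in KO-2 (adjusted p = 0.19). CDK2, the kinase partner of both E cyclins, had a log2 CPM of 5.84 and 5.77 in KO-1, 5.95 and 5.88 in KO-2, and 5.90 and 5.80 in control. Both guides overlapped control, KO-2 lay just above KO-1, and the log2 fold change with both guides was 0.01 (adjusted p = 0.92, 95% interval -0.14 to 0.16). CCNE1 lies at 19:29811898-29824308 and CDK2 at 12:55966769-55972784, both on the plus strand.

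Of the genes of S phase to mitosis, none passed with both guides, and CCNA2 fell in KO-1. CCNA2 encodes cyclin A2. Its log2 CPM was 7.56 and 7.63 in KO-1, 7.92 and 7.71 in KO-2, and 7.87 and 7.85 in control. Both KO-1 libraries lay below control, and the KO-2 libraries lay on both sides of it. CCNA2 fell by 0.27 ± 0.07 on the log2 scale in KO-1 (adjusted p = 0.016). That call was lost without KO-1 replicate 1 (0.15), KO-1 replicate 2 (0.077), control replicate 1 (0.12) or control replicate 2 (0.083), and with no mean-variance trend (0.11). In KO-2 the log2 fold change was -0.05 (adjusted p = 0.68), and with both guides -0.16 (adjusted p = 0.078, 95% interval -0.29 to -0.02). With both guides it was called under voom weights (0.048) and without KO-2 replicate 2 (0.040), where the KO-2 value alone was 0.06 (0.41).

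CCNB1, which encodes cyclin B1, had a log2 CPM of 7.99 and 7.97 in KO-1, 8.15 and 8.09 in KO-2, and 8.07 and 8.09 in control. The KO-1 libraries lay below control, and both KO-2 libraries lay above it, replicate 2 only just. The log2 fold change was -0.03 with both guides (adjusted p = 0.64, 95% interval -0.13 to 0.07), -0.10 in KO-1 (adjusted p = 0.16) and 0.04 in KO-2 (adjusted p = 0.63). The KO-1 value was called when either KO-2 library was left out of the fit, at an adjusted p of 0.037 each time. CDK1, the kinase of mitosis, had a log2 CPM of 7.16 and 7.24 in KO-1, 7.21 and 7.03 in KO-2, and 7.30 and 7.22 in control. KO-1 overlapped control, and KO-2 lay just below it. The log2 fold change was -0.10 with both guides (adjusted p = 0.27, 95% interval -0.24 to 0.04), -0.06 in KO-1 (adjusted p = 0.56) and -0.14 in KO-2 (adjusted p = 0.23).

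These 3 genes are textbook targets of the MuvB complexes. One of these, DREAM, holds late cell cycle genes down in resting cells through a CHR element, with a CCAAT box beside it in some. The 250 bases before the RefSeq starts of the 3 genes (GRCh38.p14) are shown so that the late genes can be compared, with matches in capitals. The motifs searched on both strands were TTTGAA for the CHR, with its variant spellings TTCGAA, the variant TTTAAA and also the variant CTTGAA, the E2F spellings TTTGGCGC, TTTCCCGC, TTTCGCGC and TTTGCCGC, the CCAAT box (ATTGG where it lies on the other strand), and the cyclic AMP response element TGACGTCA. The windows are chr4:121823884-121824133 on the minus strand for CCNA2, chr5:69166900-69167149 on the plus strand for CCNB1 and chr10:60778228-60778477 on the plus strand for the second of 2 starts of CDK1. GENCODE draws the genes at 4:121816444-121823933 for CCNA2, 5:69167010-69178245 for CCNB1 and 10:60778331-60794852 for CDK1, so each window runs into the gene as drawn there.
CCNA2: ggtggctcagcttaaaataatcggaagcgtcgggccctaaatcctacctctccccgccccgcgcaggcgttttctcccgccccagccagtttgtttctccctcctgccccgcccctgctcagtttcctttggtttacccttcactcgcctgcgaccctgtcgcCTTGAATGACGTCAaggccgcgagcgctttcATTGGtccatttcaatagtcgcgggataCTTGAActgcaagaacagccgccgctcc
CCNB1: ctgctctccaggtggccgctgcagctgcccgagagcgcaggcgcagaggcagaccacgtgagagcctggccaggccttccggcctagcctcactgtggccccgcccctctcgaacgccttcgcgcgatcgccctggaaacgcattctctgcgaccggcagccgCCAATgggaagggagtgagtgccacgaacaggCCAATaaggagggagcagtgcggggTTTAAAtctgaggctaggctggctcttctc
CDK1: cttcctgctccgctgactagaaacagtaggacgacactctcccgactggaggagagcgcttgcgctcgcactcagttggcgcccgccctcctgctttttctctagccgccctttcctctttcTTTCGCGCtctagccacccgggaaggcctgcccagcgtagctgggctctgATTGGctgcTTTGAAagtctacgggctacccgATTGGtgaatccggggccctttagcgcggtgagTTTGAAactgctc
Positions count back from the start to the first base of a match. CCNA2 holds CTTGAA at -87, which runs on into TGACGTCA at -81, a reversed CCAAT at -56 and a second CTTGAA at -28. CCNB1 holds CCAAT at -87 and -55 and TTTAAA at -30. CDK1 holds TTTCGCGC at -128, reversed CCAAT at -78 and -46, and TTTGAA at -69 and -13. Over all 35116 windows of this length, 29.1% hold a CHR spelling, 32.0% a CCAAT box, 2.79% an E2F spelling and 1.65% the cyclic AMP response element. CHR and CCAAT matches are thus common in windows of this length, and those of the longer motifs are not. Other windows held matches too. The CCNE1 window holds TTTAAA at -28, CCND3 has CCAAT at -136 before one of its starts and a reversed CCAAT at -64 before another, and the window of the first CDK1 start holds TTTGAA at -161, CCAAT at -150 and TTTAAA at -131. RefSeq windows were at hand for 7 of the 10 genes, and a match is a description of letters, not a site shown to act in these cells.

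On CPM per kb of exon, which allows levels of different genes to be set roughly side by side, CCND1 was highest at 211 in KO-1, 209 in KO-2 and 183 in control. The length counts every annotated exon base of a gene, whichever transcripts the cells make. Opposite-strand overlaps such as those of CDK4, CCNE2 and CCND1 were not corrected for. Others took in 14.5% of the exon bases of CDK2, with AC025162.1, and 9.08% of those of CCNA2, with EXOSC9. CCNB1, at 98.6 in KO-1, 109 in KO-2 and 106 in control, came next, and CCNA2, CDK4 and CDK1 followed in that order in all 3 groups. CCNE1 and CDK2 stood close together, at 15.3 and 14.3 in KO-1, 17.9 and 15.5 in KO-2, and 15.7 and 14.8 in control. CCND3, CDK6 and CCNE2 were the lowest. CDK6 ranked eighth in KO-1 with 6.42 CPM per kb, ninth in KO-2 with 4.42 and last in control with 3.16. Neighbours in the order did not overlap between libraries except CCNE1 with CDK2 and CDK6 with CCND3, both in KO-1.

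KO-2 against KO-1 tests the difference between the guides directly, and none of the 10 genes passed it in limma, where 1.14% of all genes did, 0.334% higher and 0.806% lower. At an unadjusted p below 0.05, 5 of the 10 differed, 4 higher in KO-2 and 1 lower. Over all genes 17.3% differed at that p, and 8.58% were higher in KO-2 at that p. The gene that was lower in KO-2 was CDK6, with a log2 difference of -0.54 ± 0.12 (adjusted p = 0.057, 95% interval -0.80 to -0.28). Voom weights on the recovered reads called it at an adjusted p of 0.039, and the authors' deposited table gives it a false discovery rate of 0.0376. Of the 13 other settings run, 3 called CDK6 in this comparison: the voom weights and the fits without KO-2 replicate 1 or KO-2 replicate 2. The other 10 left it uncalled, among them no mean-variance trend and the fits without KO-1 replicate 1 or KO-1 replicate 2. Its log2 difference ran from -0.65 to -0.42 over the 13. The 4 higher in KO-2 were CCNA2 at 0.22 (adjusted p = 0.16), CCNE1 at 0.22 (adjusted p = 0.24), CCNB1 at 0.14 (adjusted p = 0.20) and CDK4 at 0.13 (adjusted p = 0.26). Of all 10, 7 were higher in KO-2 than in KO-1, against 49.7% of all genes.

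The KO-2 values depended on which of its libraries was used. In 9 of the 10 genes KO-2 replicate 1 was higher than replicate 2, while 51.6% of all genes were. The median of replicate 1 minus replicate 2 over all 10 was 0.12 on the log2 scale. In KO-1 and in control, 5 of 10 were higher in replicate 1. Regardless of sign, the KO-2 replicates differed by a median of 0.12 in the 10 genes and 0.16 over all genes. CCNE2 differed most between the KO-2 replicates, with 3.88 in replicate 1 and 3.54 in replicate 2. Without KO-2 replicate 1, 6 of 10 genes were called in KO-2, CCNA2, CCND3, CCNE2 and CDK1 falling as well, where 26.2% of all genes were called. In that fit the log2 fold change was -0.15 for CCNA2, -0.23 for CDK1, -0.27 for CCND3 and -0.57 for CCNE2. In the mirror fit, without KO-2 replicate 2, the values were 0.06, -0.05, -0.12 and -0.23 in the same order. Each of these fits leaves 1 KO-2 library, so the spread between the KO-2 replicates, the widest of any group, drops out of the test. Calls gained in this way therefore do not show that falls were hidden by KO-2 replicate 1. With both guides averaged, leaving out that library gave 6 of 10, with CCNA2 (0.00033) and CDK1 (0.015) falling, where 42.6% of all genes were called. Without KO-2 replicate 2, KO-2 against KO-1 gave 6 of 10, CCNA2, CCNB1, CCND3, CCNE1 and CCNE2 higher and CDK6 lower, where 23.0% of all genes were called.

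**Figure D4:**
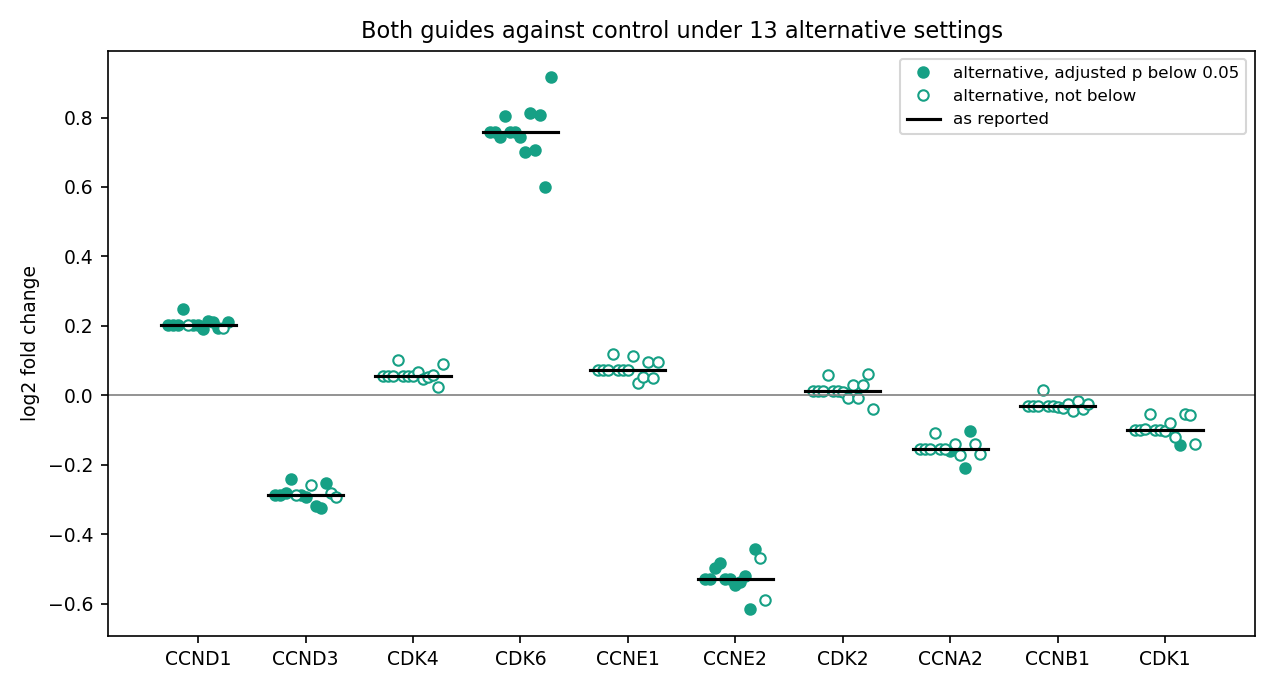
Log2 fold change of each of the 10 genes with both guides over control under 13 other settings, filled where the adjusted p is below 0.05, with the reported value as a line. CDK6 stays between 0.60 and 0.92 and is filled throughout, while CCND1, CCND3 and CCNE2 each have open points and CCNA2 and CDK1 some filled ones.

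The regulators around these genes were followed in 6 lists. Over all genes tested, 14.6% rose and 14.9% fell with both guides, 29.6% in all, and each list's count stands against those shares. Of 8 CDK inhibitors, 3 rose and 3 fell with both guides, 6 in all, with a median log2 fold change of 0.32 against -0.01 over all genes. CDKN1A, which encodes p21, had a log2 CPM of 8.27 and 8.24 in KO-1, 7.65 and 7.84 in KO-2, and 6.82 and 6.75 in control, and rose by 1.21 (adjusted p = 1.2e-06). CDKN1B, which encodes p27, rose by 0.28 (adjusted p = 0.0033), a call lost without control replicate 1 (0.080). CDKN2C, which encodes p18, an inhibitor of CDK4 and CDK6, fell by 0.60 (adjusted p = 0.00057), and CDKN3, a phosphatase that acts on CDKs, fell by 0.51 (adjusted p = 0.0048), a call lost without control replicate 1 (0.084). The list thus held members that moved in both directions.

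Of 11 genes that switch CDKs on or off or bind them as CKS proteins, 4 rose and 5 fell with both guides, with a median of -0.02, where 29.6% of all genes were called. WEE1, a kinase that inhibits CDK1, rose by 0.33 (adjusted p = 0.0016), and PKMYT1, which also inhibits CDK1, fell by 0.54 (adjusted p = 0.0095). CDC25B, a phosphatase that activates CDKs, fell by 0.24 (adjusted p = 0.0058), and CDK7, the CDK-activating kinase, rose by 0.29 (adjusted p = 0.013). The calls of PKMYT1, CDC25B and CDK7 were each lost when either control library was left out, at adjusted p of 0.061 to 0.19, and that of CDK7 also without KO-1 replicate 1 (0.054).

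Of 20 genes of the RB, E2F, MuvB, B-MYB and FOXM1 group, 2 rose and 7 fell with both guides, with a median of -0.07, where 14.6% of all genes rose and 14.9% fell. E2F1, an activator of S phase genes, had a log2 CPM of 5.02 and 5.02 in KO-1, 5.32 and 5.50 in KO-2, and 6.17 and 6.07 in control, and fell by 0.91 (adjusted p = 2.6e-05). MYBL2, which encodes B-MYB, fell by 0.57 (adjusted p = 4.3e-05), E2F8, a repressor, by 0.59 (adjusted p = 0.00061) and E2F2 by 0.51 (adjusted p = 0.0011). For all 4 the knockout libraries lay below both control libraries. The 4 were named for the smallest p of the group, which largely fixes this, and 46.3% of all genes lay on one side of control. Of 24 genes of cyclin degradation, 2 rose and 6 fell, with a median of -0.03, a share of calls near the 29.6% of all genes. CDC20, an activator of the anaphase-promoting complex, fell by 0.36 (adjusted p = 0.00098), ANAPC1, a subunit of that complex, by 0.35 (adjusted p = 0.0015), SKP2 by 0.31 (adjusted p = 0.0052) and FBXO4 by 0.71 (adjusted p = 0.0058). SKP2 and FBXO4 are F-box proteins, and their calls were lost without control replicate 1 (0.10 and 0.077), that of FBXO4 also without control replicate 2 (0.079).

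Of the remaining cyclins and CDKs of the cycle, 5 of 7 listed were tested, and 1 fell with both guides, where 14.9% of all genes fell. That was CCNF, an F-box cyclin, which fell by 0.23 (adjusted p = 0.016), a call lost without control replicate 1 (0.11), control replicate 2 (0.19) or KO-1 replicate 2 (0.071). CCNB2, the second B cyclin, had a log2 fold change of -0.14 (adjusted p = 0.22) and CCNO 0.21 (adjusted p = 0.38). Of 28 tested cyclins and CDKs of transcription, neurons and other roles, 6 rose and 7 fell, with a median of 0.03, where 29.6% of all genes were called. CCNG1, a cyclin induced by p53, rose by 0.56 (adjusted p = 2.6e-05) and CCNG2 by 0.21 (adjusted p = 0.015), while CCNJ fell by 0.35 (adjusted p = 0.0052) and CDK9, the kinase of transcription elongation, by 0.29 (adjusted p = 0.0071). The calls of CCNG2, CCNJ and CDK9 were lost when either control library was left out, at adjusted p of 0.058 to 0.16, and that of CCNG2 also without KO-1 replicate 1 (0.053) or KO-1 replicate 2 (0.064). With no mean-variance trend the calls of CDKN3, CDC25B, PKMYT1, CCNF, CCNG2 and SKP2 were lost as well, at adjusted p of 0.058 to 0.093. In KO-2 alone the lists gave fewer calls than in KO-1 alone, 3 against 7 among CDK inhibitors and 2 against 8 among degradation genes. Over all genes KO-2 likewise had fewer calls, 16.9% against 29.7% in KO-1, and the difference in the lists' counts was not tested.

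**Figure D5:**
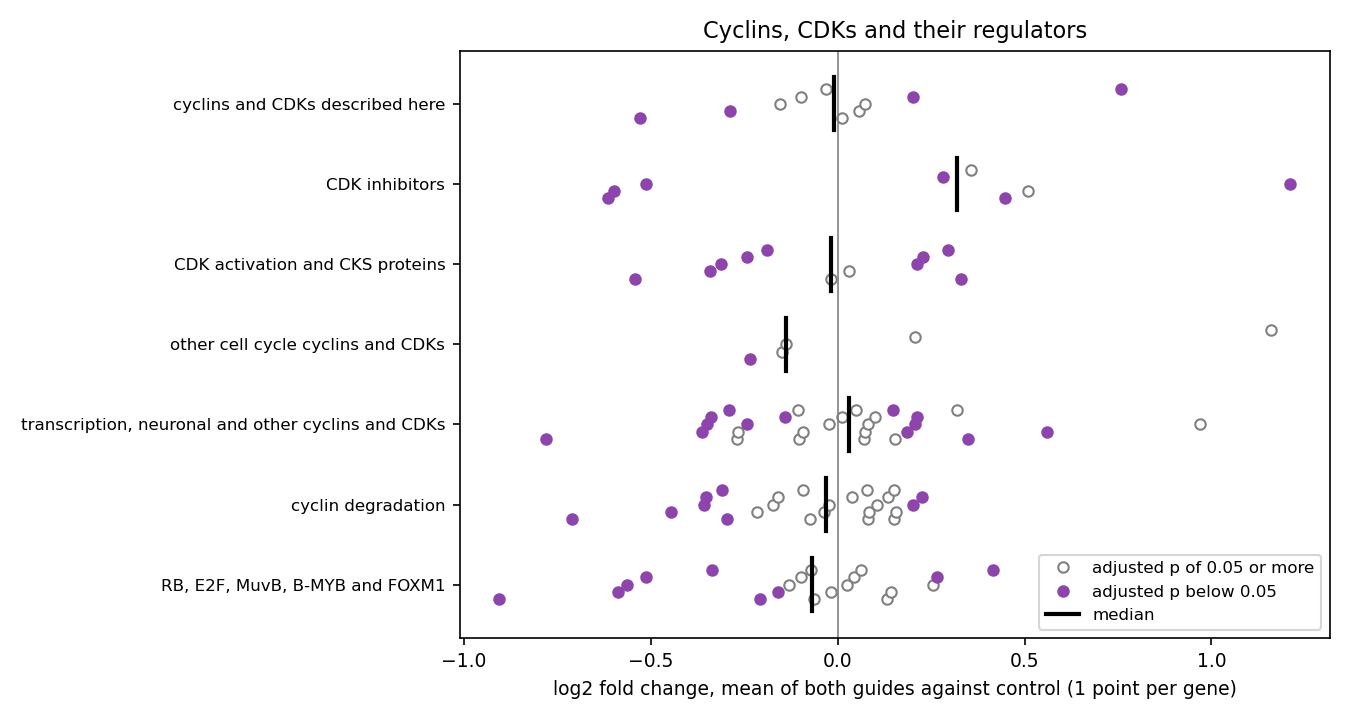
Log2 fold change with both guides over control for each tested gene of the cyclin and CDK set and of the 6 lists around it; points are genes, filled where the adjusted p is below 0.05, and the bar is the list's median. CDKN1A at 1.21 and E2F1 at -0.91 lie far from the medians, which run from -0.14 to 0.32.

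For each of the 4 genes called with both guides, the 2 genes with the most similar values over the 6 libraries were sought among 10176 genes whose log2 CPM averaged 3 or more. Likeness was the root mean square difference of log2 CPM after each gene was centred on its own mean. CDK6 was nearest to IL32 at 0.080 and TXNIP at 0.087. CCND1 was nearest to TXLNA at 0.014 and LGALS3BP at 0.015, CCND3 to EXOSC8 at 0.020 and ENOPH1 at 0.021, and CCNE2 to CFL2 at 0.025 and PITPNA at 0.033. The distances are smallest for the genes that vary least, so they do not rank the 4 genes by how close their neighbours are.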

How the data were processed

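Bulk RNA sequencing of 6 CAL51 libraries was analysed. Per the submitters' processing notes, the human build was hg38, and the tools included STAR 2.7, fastp, Subread 2.0 with its featureCounts, and edgeR. The sources used here do not give the annotation, strand setting or gene filter. Expression was deposited by the authors as log2 CPM. A second table deposited by the authors holds log2 fold changes, p-values and false discovery rates. Subtracting the prior of 0.102 CPM gave whole reads for 100% of values, at a tolerance of 0.01 reads.

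Genes with log2 CPM of at least 0 in at least 2 libraries were kept (13765 of 14788). The log2 values were fitted as deposited with limma (version 3.58.1, R 4.3.3) as group means of all 6 libraries with a mean-variance trend, 3 residual and 8.02 prior degrees of freedom. The prior in the deposited values understates the fold changes of low genes, and no further pseudocount was added. Contrasts were both guides, KO-1 and KO-2, each over control, and KO-2 over KO-1, with Benjamini-Hochberg adjustment; the first 3 share the control libraries. Replicates differed beyond sampling noise (chi-square over its degrees of freedom 3.06 in KO-1, 8.70 in KO-2 and 3.79 in control), so none were merged. Errors of fold changes are SE. Exon lengths and coordinates are from GENCODE release 29 (GRCh38). The script was tested on simulated data.

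All 10 genes are named. Of each list, up to 4 genes with the smallest p with both guides are named, plus CDKN1A and CDKN1B; partner genes with overlapping exons were added after their values were seen. The members and lists were chosen with earlier results of these data known. Alternatives were filters, a pseudocount of 1 CPM, equal medians, no trend, the replicate number as a block, each library left out and, chosen after seeing the data, voom weights. An edgeR test planned on recovered reads was not run, because the deposited unit is log2.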

Additional observations from a re-analysis of the deposited data

Results flagged for a closer look

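Of the 96 tested genes in the 6 lists around the cyclins and CDKs, 3 differed between the guides by the direct test of KO-2 over KO-1 in limma, where 1.14% of all genes did, and none of the 10 cyclins and CDKs did. CDKN1A was lower in KO-2 than in KO-1, with a log2 difference of -0.51 (adjusted p = 0.0071). CDC20 was higher in KO-2, by 0.35 (adjusted p = 0.030), and so was MYBL2, by 0.35 (adjusted p = 0.025). All 3 calls were lost without KO-1 replicate 1 (adjusted p of 0.31 for CDKN1A, 0.33 for CDC20 and 0.31 for MYBL2) or KO-1 replicate 2 (0.27, 0.42 and 0.42 in the same order). They were also lost with no mean-variance trend (0.21, 0.25 and 0.24). The calls of CDC20 (0.10 and 0.099) and MYBL2 (0.087 and 0.087) were lost without control replicate 1 or 2 as well.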

How the results depend on the processing

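With no mean-variance trend the genes called came to 2201 with both guides, 2345 in KO-1, 162 in KO-2 and 1 for KO-2 over KO-1, against 4068, 4089, 2329 and 157 as reported, and the cyclins and CDKs called to 2, 3 and 0 in the first 3 comparisons. Voom weights called 4608, 4521, 2637 and 167 genes in the same order of comparisons, and 5, 5, 3 and 1 of the 10. Leaving out 1 library gave 1286 to 6075 genes with both guides, 1694 to 6255 in KO-1, 362 to 4565 in KO-2 and 0 to 3170 for KO-2 over KO-1; of the 10 it gave 1 to 6, 1 to 6, 0 to 6 and 0 to 6. In such fits the lone library of a group is assumed to vary like the others. With the replicate number as a block, 3782, 3829, 2054 and 105 genes were called, and 4, 5, 2 and 0 of the 10, the same genes as without it. Same-numbered libraries did not deviate together (r = -0.04 for KO-1 with KO-2, -0.05 for KO-1 with control and 0.04 for KO-2 with control), so the numbers do not show a pairing. With library medians set equal, a shift of at most 0.03 per library, 61.7% of the calls with both guides were higher, against 49.4% as reported, 60.5% against 49.0% in KO-1 and 64.5% against 51.6% in KO-2, and the calls among the 10 were the same.

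Of 520 values of the 10 genes under other settings, 15 changed sign, none of them of a gene called in that comparison. With medians equal, CCNB1 with both guides was 0.015, and in KO-1 CDK4 was 0.041, CCNE1 0.016 and CDK2 0.0067. With 1 library left out, the log2 fold change with both guides ran from -0.038 to 0.061 for CDK2 and from -0.0041 to 0.42 for CCNO. In KO-1 it ran from -0.043 to 0.021 for CDK4, from -0.11 to 0.042 for CCNE1 and from -0.095 to 0.0047 for CDK2. In KO-2 it ran from -0.15 to 0.059 for CCNA2. For KO-2 over KO-1 it ran from -0.035 to 0.012 for CCND1 and from -0.16 to 0.017 for CDK1. CCNO is not one of the 10 and not part of the 15. With both guides and 1 library left out, it ran from -0.0041 to 0.42. The cause of these changes was not tested. Of the 10 genes, CCNE2 had the fewest reads, 182 in its lowest library.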
